A study of Mus musculus with 12 samples.

Results

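The genes Mcm2 to Mcm10 and Pcna are described here as a set of 10 among the 18820 genes that had a probe set with a single symbol. They were chosen by name, and the brightest probe set of each symbol was used. All 10 were measured, and no filter on low values was applied. The arrays came from C57BL/6 mice aged 11 days. The 4 groups of 3 arrays each were: hind limb skeletal muscle of Tk2-/- mice, skeletal muscle of Tk2+/+ mice, heart of Tk2-/- mice and heart of Tk2+/+ mice. The Tk2-/- mice are knockouts that lack thymidine kinase 2, the mitochondrial enzyme that phosphorylates thymidine and deoxycytidine. The study set knockout against wild-type tissue to find which genes change while mitochondrial DNA is being lost. Values are linear probe set intensities, called signal, as the authors deposited them. Fold changes are on the log2(signal + 16) scale, which understates the change of dim genes, and tests are limma's with Benjamini-Hochberg adjustment over all 18820 genes. A change was called where the adjusted p was under 0.05. The number of arrays limits the precision.

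The proteins of Mcm2, Mcm3, Mcm4, Mcm5, Mcm6 and Mcm7 form a ring, the core of the helicase that opens nuclear DNA for copying. The origin recognition complex, CDC6 and CDT1 load the ring onto DNA before S phase, and CDC45 and the GINS complex then turn it into a moving helicase with the help of MCM10. MCM8 and MCM9 form a related helicase that acts mainly in repair by homologous recombination, and PCNA is the sliding clamp that holds DNA polymerases on their template. Genes of the ring and Pcna are transcribed as cells enter the cycle and are known targets of E2F transcription factors, so their transcripts are used as marks of cells that are cycling or about to. In young skeletal muscle such cells are mostly myogenic progenitors and cells of the connective tissue, vessels and blood, while muscle fibres do not divide.

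The heart arrays of Tk2-/- mice stood apart. Their mean signal lay between 146.7 and 168.4, against 201.8 to 252.4 on the other 9 arrays, and over all genes the log2 fold change had a median of -0.28 in heart, where it was -0.02 in skeletal muscle. Tk2 itself had signals of 64.7, 44.1 and 48.7 in Tk2-/- skeletal muscle, against 62.9, 68.5 and 63.1 in Tk2+/+ skeletal muscle, so the genotypes overlapped. It had 30.1, 46.2 and 31.7 in Tk2-/- heart, against 70.2, 73.6 and 81.8 in Tk2+/+ heart. Where its probes lie with respect to the disruption is unknown here, and the signal is therefore no check of the genotype labels. Summed over 12 skeletal muscle fibre genes, the signal was 67360 to 72950 in Tk2-/- and 59570 to 79830 in Tk2+/+ skeletal muscle, and 4209 to 4918 in Tk2-/- and 8168 to 8307 in Tk2+/+ heart. Summed over 9 cardiomyocyte genes, it was 3308 to 3518 in Tk2-/- and 7578 to 10030 in Tk2+/+ skeletal muscle, and 33040 to 36000 in Tk2-/- and 35050 to 49090 in Tk2+/+ heart. Both tissues thus carried their own markers. Xist, the transcript of the inactive X chromosome, was present on 2 of 3 arrays of Tk2-/- and 1 of 3 of Tk2+/+ skeletal muscle, and on 3 of 3 of Tk2-/- and 2 of 3 of Tk2+/+ heart. Sex was therefore not balanced between the groups.

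Promoter sequence is shown for 4 genes of the ring because it holds the E2F-type motifs, which the helicase genes share with other genes of S phase. RefSeq sequence of GRCm38.p6 from 250 bases before to 50 bases after an annotated start was found for 9 of the 10 members, and Mcm4 was not among them. The 4 motifs below were searched on both strands, TTTCCCGC, TTTGGCGC, TTTCGCGC and TTTGCCGC, which can overlap each other. They are in capitals below.
Mcm3, chr1:20820263-20820562, minus strand: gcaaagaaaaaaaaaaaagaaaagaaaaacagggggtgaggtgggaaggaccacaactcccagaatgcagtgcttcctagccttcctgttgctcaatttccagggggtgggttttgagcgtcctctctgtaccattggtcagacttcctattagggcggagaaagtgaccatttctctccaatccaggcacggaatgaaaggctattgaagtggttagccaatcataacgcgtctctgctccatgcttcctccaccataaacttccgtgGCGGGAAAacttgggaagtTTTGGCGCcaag
Mcm5, chr8:75109259-75109558, plus strand: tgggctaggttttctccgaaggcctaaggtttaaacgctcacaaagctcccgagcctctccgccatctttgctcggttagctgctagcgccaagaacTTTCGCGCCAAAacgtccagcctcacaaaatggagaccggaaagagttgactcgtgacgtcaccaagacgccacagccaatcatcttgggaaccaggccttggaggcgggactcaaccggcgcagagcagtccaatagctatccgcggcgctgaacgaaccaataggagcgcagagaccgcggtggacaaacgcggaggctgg
Mcm6, chr1:128359656-128359955, minus strand: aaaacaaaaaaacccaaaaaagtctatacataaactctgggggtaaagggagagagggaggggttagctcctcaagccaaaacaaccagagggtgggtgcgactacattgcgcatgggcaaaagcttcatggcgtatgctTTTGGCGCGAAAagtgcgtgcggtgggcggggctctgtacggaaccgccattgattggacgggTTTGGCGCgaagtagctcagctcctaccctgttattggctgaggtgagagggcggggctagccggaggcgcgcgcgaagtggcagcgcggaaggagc
Mcm7, chr5:138171834-138172133, minus strand: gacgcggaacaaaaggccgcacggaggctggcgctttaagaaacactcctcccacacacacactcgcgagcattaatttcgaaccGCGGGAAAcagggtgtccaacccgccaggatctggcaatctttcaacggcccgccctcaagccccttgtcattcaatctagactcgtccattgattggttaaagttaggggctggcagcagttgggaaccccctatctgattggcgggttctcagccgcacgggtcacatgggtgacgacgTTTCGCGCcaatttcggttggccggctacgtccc
Mcm3 had 2 matches, Mcm5 had 2, Mcm6 had 3, and Mcm7 had 2 at the start shown and none at its other annotated start. Mcm8 had 1 match, and Mcm2, Mcm9, Mcm10 and Pcna had none in this window. So 5 of 9 members held a match, against 2.26% of all 32817 such stretches. Here and for CCAAT below, members are counted by gene, over their 10 stretches, and the background is counted by stretch. In Mcm5 and in Mcm6 a pair of overlapping matches makes the same 12-base run, TTTGGCGCGAAA, on opposite strands. Only 4 of the 32817 stretches held that run, those of Mcm5, Mcm6, Mycn and Msh3, a count made after the matches were seen. CCAAT, the motif bound by NF-Y, was found in all 9 members, against 37.4% of all stretches, and in 5 members more than once, against 11.7%. A match is a description of the letters and not a site shown to be bound.

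**Figure D1:**
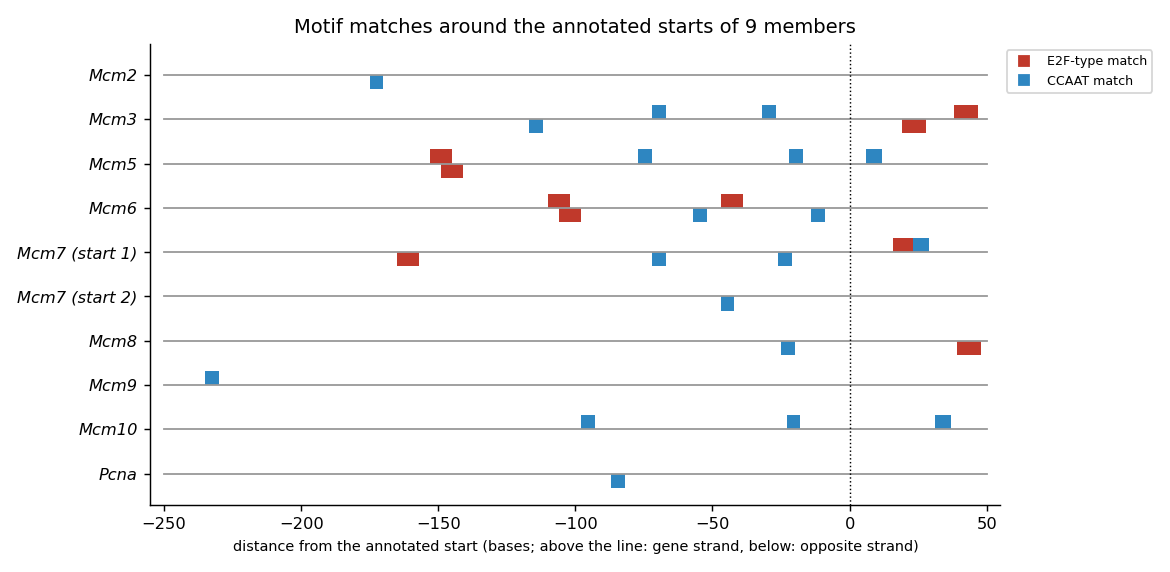
Matches to 4 E2F-type motifs (red) and to CCAAT (blue) along 300 bases around the annotated starts of 9 members, with distance from the start in bases on the x axis and 1 line per start; marks above a line are on the gene's strand and marks below it on the other. Matches to E2F-type motifs lie in Mcm3, Mcm5, Mcm6, Mcm7 and Mcm8, and CCAAT matches in all 9.

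In skeletal muscle 3 of the 6 ring genes fell in Tk2-/- mice, Mcm2, Mcm5 and Mcm6, and none of the 10 members was called higher. Of all genes, 10.9% were called lower and 11.6% higher. The median log2 fold change was -0.48 over the ring, -0.27 over the 10 members and -0.02 over all genes. Mcm5 had signals of 19.1, 38.9 and 25.9 in Tk2-/- skeletal muscle, against 123, 89.7 and 67.4 in Tk2+/+ skeletal muscle. Every Tk2-/- array was below every Tk2+/+ array, and the log2 fold change was -1.31 ± 0.26 (SE, adjusted p = 0.00207). Mcm2 had 37.9, 53.5 and 48.4 in Tk2-/- skeletal muscle, against 134, 114 and 79.5 in Tk2+/+ skeletal muscle, again without overlap, a log2 fold change of -0.98 ± 0.21 (adjusted p = 0.00343). MCM2 and MCM5 are neighbours in the ring and form the gate through which DNA enters it. Mcm6 had 65.2, 71.8 and 60.0 in Tk2-/- skeletal muscle, against 147, 97.2 and 79.8 in Tk2+/+ skeletal muscle, a log2 fold change of -0.57 ± 0.20 that lay close to the threshold (adjusted p = 0.0478). Its call was lost with sex as a covariate (adjusted p = 0.0892), an offset of 1 (adjusted p = 0.0738) or a trend and robust prior (adjusted p = 0.0539). By the methods' t-test it was lost after Benjamini-Hochberg adjustment (adjusted p = 0.226) and at a fold of 2. It was also lost when 1 of 9 of the 12 arrays was left out. These were the 3 Tk2-/- skeletal muscle arrays, Tk2+/+ skeletal muscle replicates 1 and 2, the 3 Tk2-/- heart arrays and Tk2+/+ heart replicate 2, and the adjusted p was at the highest without Tk2+/+ skeletal muscle replicate 1 (0.242).

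The other ring genes were not called in skeletal muscle. Mcm4 had 96.8, 90.7 and 82.1 in Tk2-/- skeletal muscle, against 161, 123 and 91.1 in Tk2+/+ skeletal muscle, and the groups overlapped (log2 fold change -0.39, 95% interval -0.80 to 0.03). Mcm3 had 45.9, 49.2 and 38.7 in Tk2-/- skeletal muscle, against 66.8, 65.5 and 49.7 in Tk2+/+ skeletal muscle, with no overlap but a small difference (-0.33, 95% interval -0.66 to -0.01, adjusted p = 0.146). Mcm7 stood the other way. It had 241, 301 and 209 in Tk2-/- skeletal muscle, against 207, 159.7 and 141 in Tk2+/+ skeletal muscle, and every Tk2-/- array was above every Tk2+/+ array. Its log2 fold change was 0.53 ± 0.20 (adjusted p = 0.0687). It passed the threshold after median centring of each array (adjusted p = 0.0147), after upper-quartile scaling (adjusted p = 0.0494), with dim genes left out (adjusted p = 0.0342) and with each tissue fitted alone (adjusted p = 0.0338). Of the 12 fits that left out 1 array, it passed in 2. These were without Tk2+/+ skeletal muscle replicate 1 (adjusted p = 0.041) and without Tk2+/+ heart replicate 1 (adjusted p = 0.0179). Its adjusted p was at the highest without Tk2-/- skeletal muscle replicate 2 (0.274). After quantile normalization within each tissue (adjusted p = 0.0561) or over the 12 arrays (adjusted p = 0.0538) it did not pass. Nor did it pass with an offset of 1, a trend and robust prior, sex as a covariate or the methods' t-test. Counted by arrays that did not overlap, 4 members were lower and 1 was higher in Tk2-/- skeletal muscle, against 18.8% and 16.9% of all genes.

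**Figure D2:**
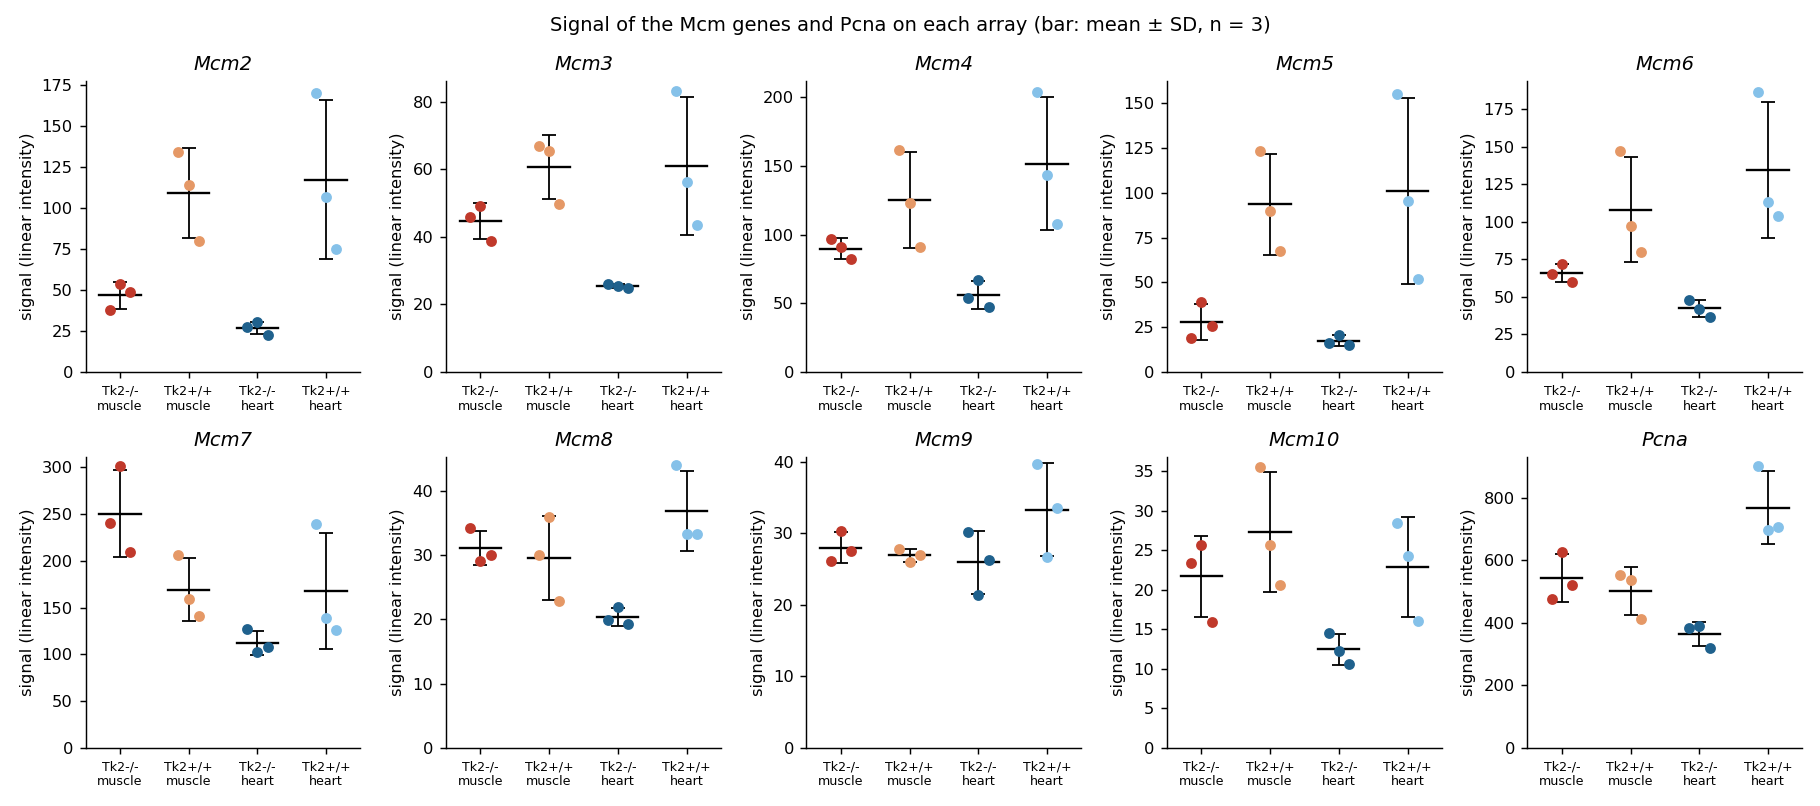
Signal (linear intensity, y axis from 0) of each member on each of the 12 arrays, by genotype and tissue; points are arrays, and bars give mean ± SD of 3 arrays. Mcm2 and Mcm5 lie lower in Tk2-/- than in Tk2+/+ mice in both tissues without overlap, and Mcm7 lies between 209 and 301 in Tk2-/- skeletal muscle, above the 141 to 207 of Tk2+/+ skeletal muscle.

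The members outside the ring showed no called difference between the genotypes in skeletal muscle. Pcna had 477, 627 and 522 in Tk2-/- skeletal muscle, against 553, 537 and 412 in Tk2+/+ skeletal muscle, and the ranges overlapped (log2 fold change 0.11, 95% interval -0.19 to 0.42). Its 2 probe sets differed by at most 1.07% on any array, and the mouse genome holds the pseudogenes Pcna-ps1 and Pcna-ps2, so signal from the gene and from a near-identical copy cannot be told apart. Mcm10 had 23.4, 25.7 and 15.9 in Tk2-/- skeletal muscle, against 35.6, 25.7 and 20.6 in Tk2+/+ skeletal muscle (-0.20, 95% interval -0.51 to 0.12). Mcm8 and Mcm9 were dim, between 22.8 and 35.9 on all 6 skeletal muscle arrays. The 95% intervals of their log2 fold changes were -0.19 to 0.31 for Mcm8 and -0.20 to 0.27 for Mcm9.

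In heart 8 of 10 members were called lower in Tk2-/- mice and none higher, where 49% of all genes were called lower and 1.99% higher. The share among the members has to be read against that background. The median log2 fold change was -1.26 over the ring and -0.95 over the 10 members, against -0.28 over all genes and -0.68 over the 4051 genes with a mean signal above 256. Mcm5 had signals of 16.3, 20.9 and 15.1 in Tk2-/- heart, against 155, 95.2 and 51.9 in Tk2+/+ heart, a log2 fold change of -1.71 ± 0.26 (adjusted p = 6.19e-05). Mcm2 had 27.4, 30.4 and 22.8 in Tk2-/- heart, against 169.8, 107 and 74.8 in Tk2+/+ heart, a log2 fold change of -1.57 ± 0.21 (adjusted p = 2.06e-05). As in skeletal muscle, these were the ring genes furthest below Tk2+/+ mice. Mcm6 had 48.2, 42.3 and 36.5 in Tk2-/- heart, against 186, 113 and 104 in Tk2+/+ heart (-1.33 ± 0.20, adjusted p = 3.94e-05). Mcm4 had 53.6, 66.9 and 47.3 in Tk2-/- heart, against 204, 143 and 108 in Tk2+/+ heart (-1.19 ± 0.20, adjusted p = 0.000101). The arrays of the genotypes overlapped for neither gene, and the Tk2+/+ hearts were spread more widely than the Tk2-/- hearts. Mcm3 had 25.9, 25.5 and 25.0 in Tk2-/- heart, the closest agreement of any member within a group, against 83.2, 56.3 and 43.4 in Tk2+/+ heart (-0.86 ± 0.15, adjusted p = 0.000206).

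Mcm7 was again the exception in the ring. It had 127, 102 and 107 in Tk2-/- heart, against 239, 139 and 126 in Tk2+/+ heart, so that 1 Tk2-/- array lay above the lowest Tk2+/+ array. The log2 fold change of -0.48 ± 0.20 did not pass (adjusted p = 0.0537), and it passed without Tk2-/- skeletal muscle replicate 2, Tk2+/+ skeletal muscle replicate 1 or Tk2+/+ heart replicate 2 or 3, at the lowest with adjusted p = 0.0179, and with dim genes left out (adjusted p = 0.0253). Outside the ring, Pcna had 382, 389 and 319 in Tk2-/- heart, against 902, 697 and 706 in Tk2+/+ heart, a fall of 1.04 ± 0.14 on the log2 scale (adjusted p = 2.27e-05). Mcm8 had 19.8, 21.9 and 19.2 in Tk2-/- heart, against 44.1, 33.3 and 33.3 in Tk2+/+ heart (-0.54 ± 0.12, adjusted p = 0.00106). Mcm10 had 14.5, 12.2 and 10.7 in Tk2-/- heart, against 28.5, 24.2 and 16 in Tk2+/+ heart (-0.44 ± 0.15, adjusted p = 0.0195). The signals of Mcm10 lie near the offset, and its call was lost without Tk2-/- heart replicate 3 (adjusted p = 0.0709), Tk2+/+ heart replicate 1 (0.101) or Tk2+/+ heart replicate 2 (0.055). Mcm9 had 30.1, 21.4 and 26.2 in Tk2-/- heart, against 39.6, 26.6 and 33.5 in Tk2+/+ heart, with overlap and no call (-0.23, 95% interval -0.47 to 0.01), except without Tk2+/+ heart replicate 2 (adjusted p = 0.0203). By arrays that did not overlap, 8 members were lower and 0 higher in Tk2-/- heart, against 53.3% and 3.16% of all genes.

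**Figure D3:**
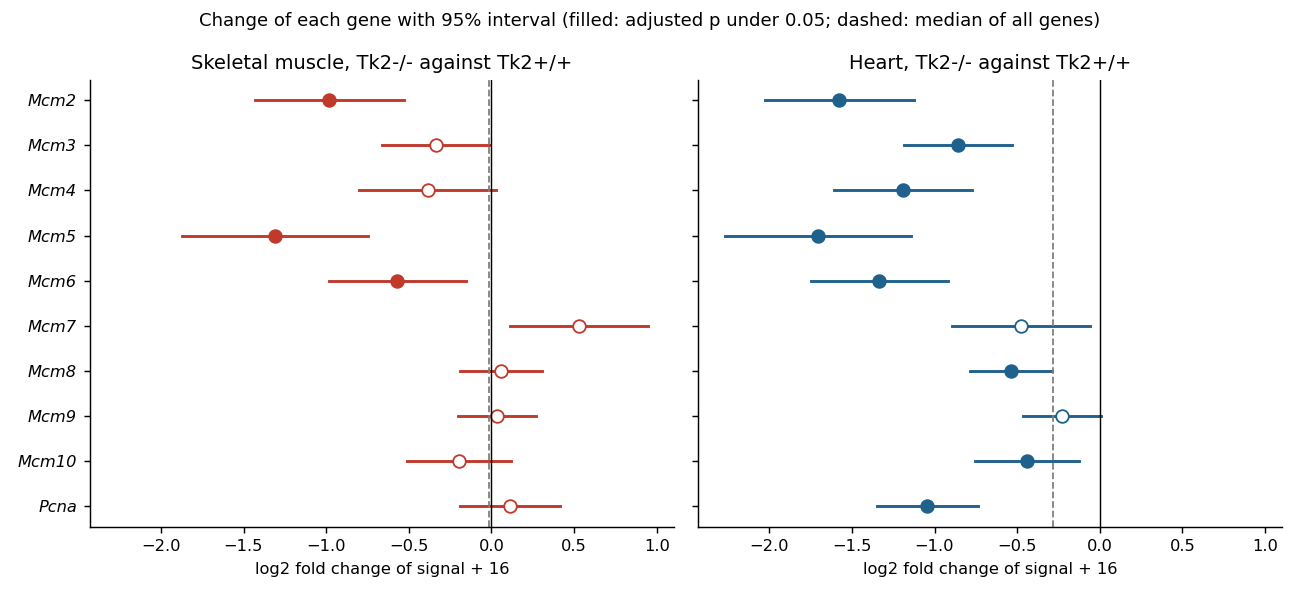
Log2 fold change of signal + 16, Tk2-/- against Tk2+/+, with its 95% interval for each member in skeletal muscle and in heart; filled points have an adjusted p under 0.05, and the dashed line is the median of all genes (-0.02 and -0.28). In skeletal muscle Mcm7 at 0.53 is the only ring gene above 0, and in heart Mcm7 at -0.48 is the ring gene nearest to 0.

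Because the Tk2-/- heart arrays were dimmer as a whole, the heart values were also taken after quantile normalization within each tissue, which gives the 6 arrays of a tissue 1 distribution. The median of all genes then moved to 0.01, and 8 of 10 members were called lower, against 15.9% of all genes called lower and 16.1% higher. Mcm5 was at -1.42 (adjusted p = 0.0011), Mcm2 at -1.16 (adjusted p = 0.000819) and Mcm6 at -0.79 (adjusted p = 0.00469). Mcm4 was at -0.60, Mcm3 at -0.52, Mcm10 at -0.37, Pcna at -0.35 and Mcm8 at -0.33, with adjusted p between 0.00502 and 0.0329. Mcm7 turned to 0.17 (adjusted p = 0.518) and Mcm9 to 0.04 (adjusted p = 0.848). With median centring or upper-quartile scaling, 6 members were lower, Mcm2 to Mcm6 and Pcna, against 23.4% and 14.6% of all genes lower and 43% and 36% higher, while Mcm8 stood at -0.09 and -0.11 and Mcm10 at 0.003 and -0.10. The fall of Mcm2 to Mcm6 and of Pcna in heart was thus called under each of these scalings, and its size was not the same under them.

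**Figure D4:**
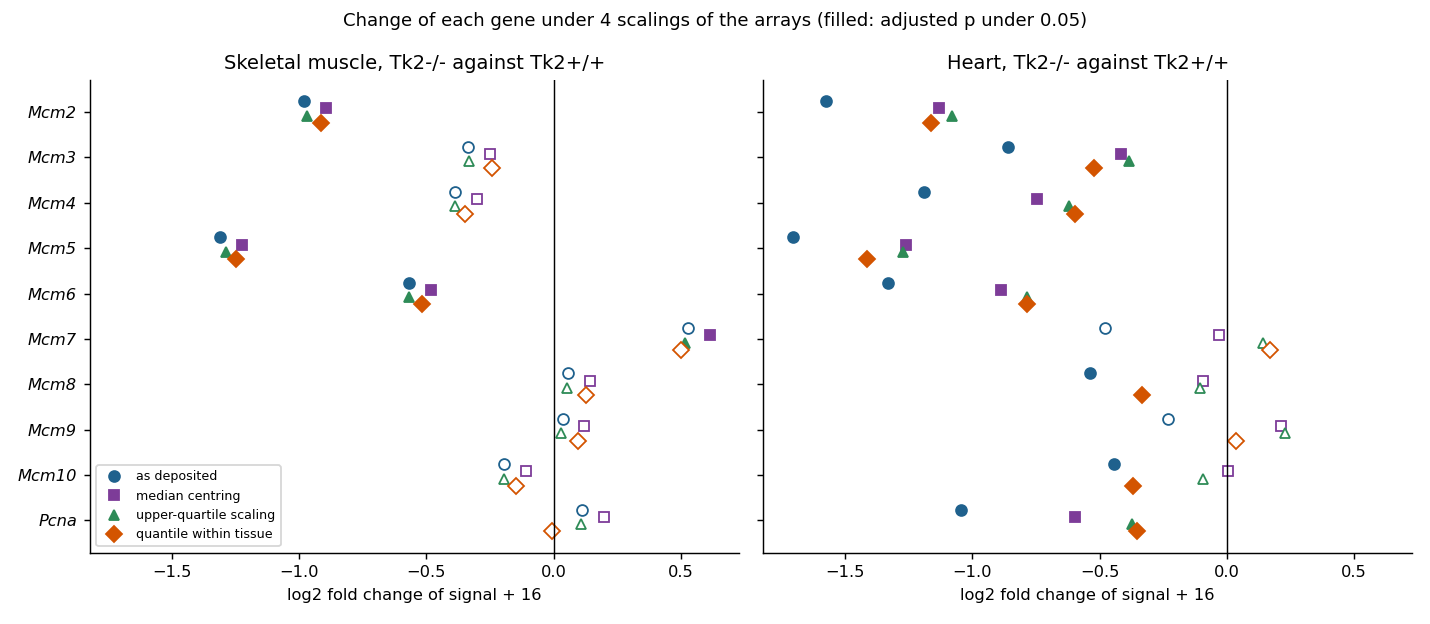
Log2 fold change of each member, Tk2-/- against Tk2+/+, with the deposited values and after median centring, upper-quartile scaling and quantile normalization within each tissue; filled marks have an adjusted p under 0.05. In heart the marks of Mcm2 to Mcm6 stay filled and left of 0 under all 4, between -1.71 and -0.38, while those of Mcm7 run from -0.48 to 0.17.

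The distance between Mcm7 and the rest of the ring was then taken within each array, where a common scale factor largely cancels. It was noticed after the values were seen and is given without a test. Levels of different probe sets cannot be compared, so only the change of this distance between arrays has a meaning. On the log2(signal + 16) scale, Mcm7 minus the mean of Mcm2 to Mcm6 was 2.01, 2.09 and 1.81 in Tk2-/- skeletal muscle, against 0.69, 0.65 and 0.83 in Tk2+/+ skeletal muscle. It was 1.56, 1.22 and 1.49 in Tk2-/- heart, against 0.59, 0.43 and 0.68 in Tk2+/+ heart. The genotypes did not overlap in either tissue, and the means differed by 1.24 in skeletal muscle and by 0.86 in heart. Without the offset the means were 2.30 ± 0.14 in Tk2-/- and 0.83 ± 0.13 in Tk2+/+ skeletal muscle, and 1.86 ± 0.24 in Tk2-/- and 0.65 ± 0.16 in Tk2+/+ heart (SD, n = 3 each). The same distance for Pcna was 2.95, 3.10 and 3.06 in Tk2-/- skeletal muscle, against 2.04, 2.31 and 2.28 in Tk2+/+ skeletal muscle. In heart it was 3.04, 2.99 and 2.93 in Tk2-/- mice and 2.44, 2.63 and 3.03 in Tk2+/+ mice, and there the genotypes overlapped. The precursors of Mir25, Mir93 and Mir106b lie within the Mcm7 gene. Their probe sets were dim, between 6.29 and 27.5 on all arrays, and none of the 3 was called between the genotypes (adjusted p from 0.173 to 0.935). Mir25 had 24.6, 24.8 and 27.5 in Tk2-/- skeletal muscle, against 21.8, 16.2 and 20.5 in Tk2+/+ skeletal muscle. It was thus higher without overlap (log2 fold change 0.23), as were 16.9% of all genes. Mir93 and Mir106b overlapped between the genotypes in skeletal muscle, and all 3 did in heart.

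**Figure D5:**
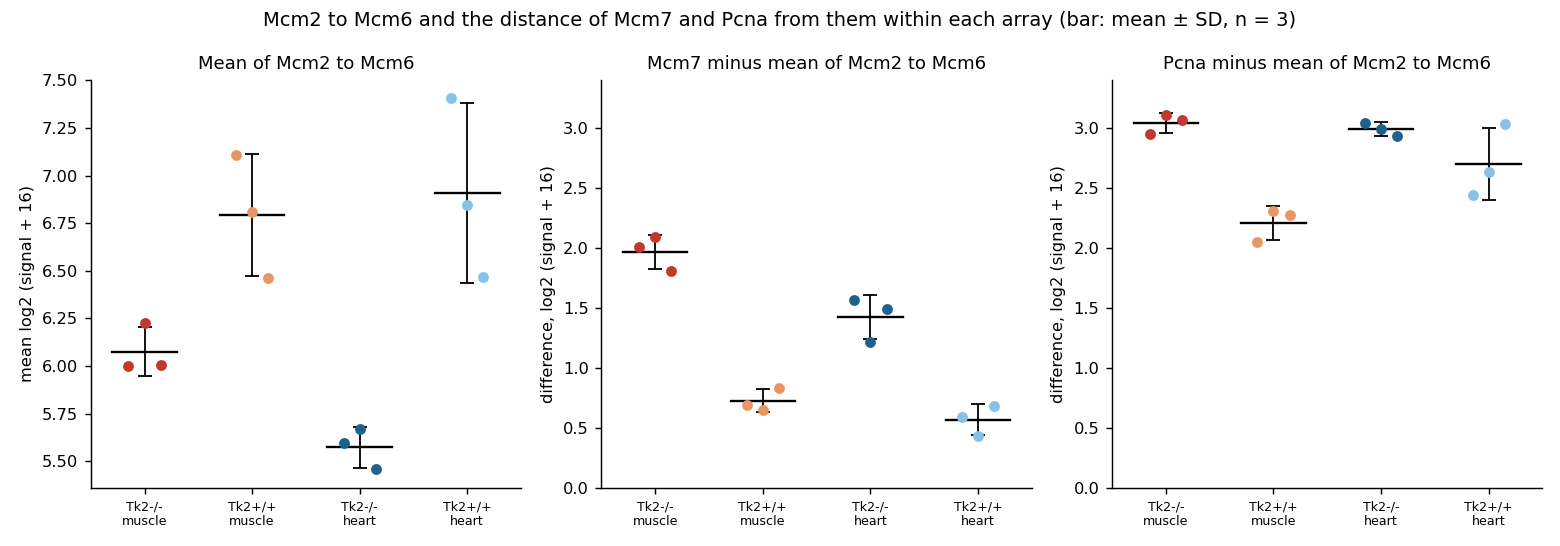
Mean log2(signal + 16) of Mcm2 to Mcm6 and the difference of Mcm7 and of Pcna from that mean on each array, by genotype and tissue; points are arrays, and bars give mean ± SD of 3 arrays. The distance of Mcm7 lies between 1.81 and 2.09 in Tk2-/- skeletal muscle, against 0.65 to 0.83 in Tk2+/+ skeletal muscle, and between 1.22 and 1.56 in Tk2-/- heart, against 0.43 to 0.68 in Tk2+/+ heart.

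The genotype effect in skeletal muscle minus that in heart was above 0 for all 10 members with the deposited values, though not for Mcm9 and Mcm10 after median centring or for Mcm5, Mcm9 and Mcm10 after upper-quartile scaling, and 5 were called higher and 0 lower, where 41.3% of all genes were called higher and 1.39% lower. The differences were 1.16 ± 0.20 for Pcna (adjusted p = 0.000444), 1.004 ± 0.28 for Mcm7 (adjusted p = 0.0081), 0.80 ± 0.28 for Mcm4 (adjusted p = 0.0278), 0.76 ± 0.28 for Mcm6 (adjusted p = 0.0352) and 0.59 ± 0.17 for Mcm8 (adjusted p = 0.0086). Leaving out 1 array at a time, the call was lost in 5 of 12 cases for Mcm4 and 7 of 12 for Mcm6, at the highest without Tk2+/+ skeletal muscle replicate 3 (adjusted p = 0.0855 and 0.106), and Mcm2 and Mcm3 were called without Tk2+/+ heart replicate 3 (adjusted p = 0.021 and 0.0107). The median was 0.59 over the members and 0.30 over all genes, but 0.79 over the 4051 genes with a mean signal above 256. With dim genes left out, 4 of the 5 members tested were called higher, against 77.9% of the 9271 genes kept. After quantile normalization within each tissue none of the members passed, where 5.14% of all genes were called higher and 4.98% lower, with values of 0.35 for Pcna and 0.33 for Mcm7. The difference in size between the tissues therefore depended on the scaling of the arrays. For Mcm2 and Mcm5 it did not pass with the deposited values either (95% intervals -0.05 to 1.23 and -0.40 to 1.19).

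In Tk2+/+ mice the ring genes had similar signals in both tissues. Only Pcna was called, lower in skeletal muscle than in heart (log2 fold change -0.60 ± 0.14, adjusted p = 0.00309), and 0 members were higher, where 18.4% of all genes were lower and 30.6% higher. The changes of the 6 ring genes lay between -0.28 and 0.04, with 95% intervals that reached -0.69 for Mcm6 and 0.54 for Mcm5. With replicate number as a block within genotype, Mcm6 was called lower in skeletal muscle too (-0.28, adjusted p = 0.0489). By Xist, however, the Tk2+/+ arrays numbered 1 came from different animals. In Tk2-/- mice 8 members were higher in skeletal muscle than in heart and 0 lower, where 59.5% of all genes were higher and 4.55% lower. Their median was 0.515 over the 10 members, against 0.362 over all genes and 0.648 over the 4051 genes with a mean signal above 256. The log2 fold change was 1.05 ± 0.20 for Mcm7 (adjusted p = 0.000293), and the other 7 lay between 0.38 for Mcm8 and 0.56 for Mcm4. The exceptions were Mcm5 (0.37, 95% interval -0.19 to 0.94) and Mcm9 (0.07, 95% interval -0.16 to 0.31). With the replicate block within genotype Mcm5 passed too (adjusted p = 0.0278), although same-numbered arrays of the Tk2-/- tissues did not deviate together. By Xist, the Tk2-/- arrays numbered 2 also came from different animals. After quantile normalization over the 12 arrays none of the 8 passed, where 18.8% of all genes were higher and 19.8% lower, Mcm7 came nearest with 0.46 (adjusted p = 0.0598), Mcm6, Mcm8 and Pcna stood at -0.005, -0.003 and -0.12, and Mcm9 was called lower (-0.36, adjusted p = 0.0196).

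The ring genes moved together between arrays of the same group. In Tk2+/+ skeletal muscle and in Tk2+/+ heart, replicate 1 was the highest and replicate 3 the lowest of its group for all 6 ring genes. In Tk2-/- skeletal muscle replicate 2 was the highest for 5 of 6, and in Tk2-/- heart replicate 3 was the lowest for 5 of 6. By Xist, the Tk2+/+ replicate 1 arrays of the tissues came from animals of different sex, so they are not the same mouse. Over the 12 arrays, deviations from the group means correlated with a Pearson r of 0.77 to 0.97 among the 15 pairs of ring genes (median 0.87). These points share the arrays and their overall brightness. Mcm7 deviated with the others inside a group, although its difference between the genotypes was apart from theirs. The r with the ring genes was 0.75 to 0.86 for Mcm10, 0.73 to 0.85 for Pcna, 0.50 to 0.74 for Mcm8 and 0.15 to 0.68 for Mcm9. The r with the mean profile of the ring was also taken across all 12 arrays, group differences included. It was 0.93 to 0.99 for Mcm2 to Mcm6 and 0.59 for Mcm7, which are themselves part of that profile. Outside the ring it was 0.90 for Mcm10, 0.84 for Mcm8, 0.84 for Pcna and 0.54 for Mcm9.

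Other genes of DNA replication were counted in 7 lists with 83 measured genes, written with earlier results of these data known. In skeletal muscle 28 of them were lower and 5 higher in Tk2-/- mice, against 10.9% and 11.6% of all genes, and the median was -0.25, against -0.02 over all genes. The G2 and mitosis markers made up 13 of the 28. Ccna2, the cyclin of S and G2 phase, was at 26.1 ± 20.3 in Tk2-/- and 232 ± 76.9 in Tk2+/+ skeletal muscle, a log2 fold change of -2.61 (adjusted p = 3.41e-05). Mki67, the antigen of cycling cells, was at 46.9 ± 43.5 in Tk2-/- and 244 ± 93.6 in Tk2+/+ skeletal muscle (-2.21, adjusted p = 0.000642). In the other 6 lists, 15 of 69 genes were lower and 5 higher, and their median was -0.17.

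Among the 9 genes of origin licensing, which load the ring, 1 was lower and 1 higher in Tk2-/- skeletal muscle, a share near that of all genes. Cdt1, the loading factor, fell by 0.53 on the log2 scale (adjusted p = 0.0342), and Orc2, a subunit of the origin recognition complex, was 0.59 higher (adjusted p = 0.00302). Of 11 genes of helicase activation, Gins1, a GINS subunit, was higher at 48.0 ± 10.3 in Tk2-/- and 23.5 ± 4.15 in Tk2+/+ skeletal muscle (0.69, adjusted p = 0.00322), and Ticrr, which helps origins to fire, was lower (-0.41, adjusted p = 0.0248). Of 12 polymerase and primase genes, 3 were lower and 2 higher. Pole, the catalytic subunit of DNA polymerase epsilon, was at 139.9 ± 32.3 in Tk2-/- and 61.3 ± 14.1 in Tk2+/+ skeletal muscle (1.01, adjusted p = 0.00209), while its small subunits Pole4 (-0.88, adjusted p = 0.00316) and Pole2 (-0.55, adjusted p = 0.0218) fell. The 17 genes of the clamp loader, flap processing, ligation, RPA and chromatin assembly held 3 that fell, Rpa3, Chaf1b and Rfc2, and 0 that rose. Of 7 genes of nucleotide supply 3 fell, among them Rrm1, the large subunit of ribonucleotide reductase (-0.76, adjusted p = 0.00566), and Dck, deoxycytidine kinase of the cytosol and nucleus (-0.62, adjusted p = 0.00295).

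Among 13 genes for partners of MCM and PCNA proteins, 4 fell and 1 rose in Tk2-/- skeletal muscle. Pclaf, a PCNA-associated factor, was at 20.5 ± 5.97 in Tk2-/- and 94.6 ± 31.8 in Tk2+/+ skeletal muscle (-1.57, adjusted p = 0.000221). Cdkn1a encodes p21, which binds PCNA and inhibits cyclin-dependent kinases. It was at 2592 ± 145 in Tk2-/- and 563 ± 26.8 in Tk2+/+ skeletal muscle, which was 2.17 higher on the log2(signal + 16) scale (adjusted p = 2.02e-07). Of the 83 genes, 71 were lower in Tk2-/- heart and 1, Cdkn1a, was higher (0.49, adjusted p = 0.0141), with a median of -0.69 against -0.28 over all genes. Of all genes 49% were called lower in heart, and of those with a mean signal above 64, 82.4%. After quantile normalization within each tissue, 44 of the 83 were lower and 5 higher, against 15.9% and 16.1% of all genes, and all 14 G2 and mitosis markers were among those lower. With the deposited values Ccna2 was at 12.8 ± 1.96 in Tk2-/- and 259 ± 133 in Tk2+/+ heart (-3.16, adjusted p = 2.5e-06), and Prim2, the large primase subunit, at 36.8 ± 2.51 in Tk2-/- and 99.9 ± 19.6 in Tk2+/+ heart (-1.12, adjusted p = 8.23e-06).

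The genes whose signal over the 12 arrays was most like the mean profile of the ring were taken among 9266 genes with a mean signal above 64, as a description. They were Prim2 (r = 0.975), D17H6S56E-5 (0.975), Dnmt1 (0.970), Cdc25a (0.962), Cks1b (0.962), Sec61g (0.958), Rbl1 (0.958), Bcar1 (0.956), Lmnb1 (0.955) and Nup205 (0.955). Dnmt1 copies DNA methylation behind the fork, Cdc25a is a phosphatase that activates cyclin-dependent kinases, Cks1b binds these kinases and Rbl1 is a partner of E2F factors. Group differences are part of this profile, so the changes of these genes between the genotypes follow from how they were chosen.

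Markers of cell types were counted beside the ring genes. These arrays measure whole tissue, so fewer cells of a type and less RNA per cell cannot be told apart. In skeletal muscle the counts stand beside 10.9% of all genes called lower and 11.6% called higher. Of 8 satellite cell and myoblast markers, 4 were lower in Tk2-/- skeletal muscle, and their summed signal was 966.8 to 1212 in Tk2-/- and 1164 to 1622 in Tk2+/+ skeletal muscle. Of 8 fibroblast markers, 5 were lower and 1 higher there, with sums of 8090 to 9873 in Tk2-/- and 13530 to 15550 in Tk2+/+ skeletal muscle. Of 8 endothelial markers 1 was lower and 1 higher there, of 8 macrophage and leucocyte markers 0 were lower and 2 higher, and of 6 erythroid markers none was called. The endothelial sum was 5390 to 6050 in Tk2-/- and 5721 to 7163 in Tk2+/+ skeletal muscle, and the macrophage and leucocyte sum 1496 to 1852 in Tk2-/- and 1237 to 1944 in Tk2+/+ skeletal muscle. In heart, where 49% of all genes and 82.4% of those with a mean signal above 64 were called lower, all 8 fibroblast, all 8 endothelial and all 8 macrophage and leucocyte markers were lower in Tk2-/- mice. After quantile normalization within each tissue, with 15.9% of all genes lower, 5 fibroblast, 3 endothelial and 7 macrophage and leucocyte markers were lower and 2, 1 and 0 higher. The median log2 fold change was then -1.04 for the fibroblast, -0.14 for the endothelial and -0.55 for the macrophage and leucocyte markers. The sums are of the deposited values, which were lower as a whole on the Tk2-/- heart arrays. The fibroblast sum was 5846 to 6650 in Tk2-/- and 10600 to 13100 in Tk2+/+ heart. The endothelial sum was 4337 to 5527 in Tk2-/- and 8230 to 9761 in Tk2+/+ heart, and the macrophage and leucocyte sum 753.7 to 898.1 in Tk2-/- and 1981 to 2465 in Tk2+/+ heart. With the deposited values, erythroid markers were lower for 3 of 6 in heart, with sums of 464.5 to 777.3 in Tk2-/- and 1191 to 1983 in Tk2+/+ heart. Of the 8 satellite cell and myoblast markers, 2 were lower and 1 higher in Tk2-/- heart. Schwann cell markers were lower for 0 of 3 in skeletal muscle and 1 of 3 in heart. No marker of these lists was at 0 on all arrays of a group. The part of these markers in the results for the ring genes was not tested.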

How the data were processed

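The 12 arrays were Affymetrix Mouse Gene 1.1 ST, with 3 per genotype and tissue, and the methods describe 3 different mice per genotype. The values are linear intensities per probe set as the authors deposited them. Software named in the submitters' processing notes is Affymetrix Expression Console with PLIER, no version given, and the normalization is not specified in the methods. Of 35556 probe sets, 21218 carried 1 symbol, 1881 several and 12457 none, and the brightest probe set of each symbol left 18820 genes. Members and gene lists were chosen with earlier results of these data known. Every member is named. From each replication list, up to 4 genes with the largest called change in skeletal muscle and up to 2 in heart could be named, and the 10 genes most like the ring profile.

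The 4 group means were fitted to log2(intensity + 16) by lmFit and eBayes of limma 3.58.1 under R 4.3.3 (8 residual degrees of freedom, 2-sided tests, Benjamini-Hochberg over all genes, threshold 0.05), and the fit was tested on simulated data. Alternatives were other scalings, an offset of 1, dim genes left out (9271 kept), other uses of the probe sets, each tissue fitted alone, a trend and robust prior, replicate blocks, the methods' t-test and fits without each single array (12 fits). Sex as a covariate and the replicate block within genotype were added after seeing the data. Deviations of same-numbered arrays correlated with r of 0.14, 0.13 and 0.26 between the Tk2+/+ tissues. In the other comparisons at least 1 such r was under 0.1. Xist shows that the Tk2+/+ arrays numbered 1 came from different animals, as did the Tk2-/- arrays numbered 2. The numbers therefore cannot be taken to pair the tissues by mouse. Promoter sequences are from RefSeq, GRCm38.p6. Protein sequences were not used here. Figures were drawn with Python 3.11.15 and matplotlib 3.10.9.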

Additional observations from a re-analysis of the deposited data

Results flagged for a closer look

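Between the tissues, 5 members differed in their genotype effect by limma's test of the difference itself. On the log2 scale the effect in skeletal muscle minus that in heart was 0.802 for Mcm4, 0.764 for Mcm6, 1.004 for Mcm7, 0.594 for Mcm8 and 1.156 for Pcna. Of all genes, 41.3% were called in the same direction, and none of the 5 passed after quantile normalization within each tissue.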

How the results depend on the processing

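Signals near the offset of 16 limit Mcm8, Mcm9, Mcm10 and, in Tk2-/- mice, Mcm5. In Tk2-/- heart they also limit Mcm2 and Mcm3, with mean signals of 26.9 and 25.4. Over the alternatives, single-gene values kept both their sign and their side of the threshold in 226 of 255 cases for skeletal muscle, 230 of 255 for heart, 188 of 225 for the difference between the effects, 216 of 245 for the Tk2+/+ tissues and 188 of 245 for the Tk2-/- tissues. A value called neither time counts as kept. Fits without an array of the other tissue leave the fold change between the genotypes in a tissue as it was. These counts therefore overstate how little the values depend on the processing. What caused the changes of sign or side was not tested. In skeletal muscle 3 members were lower with the deposited values, 0 by the methods' t-test after Benjamini-Hochberg adjustment (294 genes lower and 366 higher in all, against 2050 and 2179) and 1 by that test at a fold of 2 and unadjusted p. Mcm7 alone was higher (1 member, against 0) with median centring, upper-quartile scaling, dim genes left out, each tissue fitted alone and the replicate block (adjusted p = 0.0302). In heart 8 members were lower, and 5 were with dim genes left out, where only 5 members are tested and 82.4% of the 9271 genes were lower, and 5 by the t-test at a fold of 2. The difference between the effects had 5 higher members, 2 with median centring, 1 with upper-quartile scaling and 0 with either quantile normalization. Lower in Tk2+/+ skeletal muscle than in heart was 1 member, 3 with median centring or quantile normalization over the 12 arrays, 2 with the replicate block within genotype and 0 by the methods' t-test at either threshold. Of the Tk2-/- tissues, 8 members were higher in skeletal muscle, 1 with median centring and 0 with quantile normalization over the 12 arrays or upper-quartile scaling. With dim genes left out, all 5 members tested were higher, as were 72.9% of the 9271 genes. With sex as a covariate 5 members were higher, and by the t-test at a fold of 2 it was 1. Only 1 member, Mcm9, was lower under each of the 3 scalings. The replicate block shares only a number in the genotype comparisons, where it added Mcm7 in heart (-0.478, adjusted p = 0.02), and between the Tk2-/- tissues, where the block within genotype added Mcm5 (0.373, adjusted p = 0.0278).

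Among values called with the deposited signals or under the alternative, these changed sign. Mcm10 in heart stood at 0.003 with median centring. For Tk2-/- skeletal muscle against Tk2-/- heart, median centring gave -0.106 for Mcm8, -0.407 for Mcm9 and -0.083 for Mcm10. Quantile normalization over the 12 arrays gave -0.005 for Mcm6, -0.003 for Mcm8, -0.364 for Mcm9 and -0.119 for Pcna. Upper-quartile scaling gave -0.009 for Mcm8, -0.336 for Mcm9 and -0.054 for Pcna. Sign changes of values called in neither numbered 5 for skeletal muscle, 7 for heart, 5 for the difference between the effects, 19 for the Tk2+/+ tissues and 2 for the Tk2-/- tissues. Leaving out 1 array gave 0 to 1 higher members in skeletal muscle, 3 to 7 for the difference between the effects, 1 to 2 lower for the Tk2+/+ tissues and 4 to 8 higher for the Tk2-/- tissues.

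Counts over all genes moved with the scaling. In heart 9229 were lower and 375 higher with the deposited values, 4396 and 8096 with median centring, 2989 and 3023 with quantile normalization within each tissue, 3026 and 3061 with it over the 12 arrays, 2747 and 6768 with upper-quartile scaling and 1770 and 38 by the t-test at a fold of 2. For the difference between the effects, 261 were lower and 7781 higher, 3948 and 3988 with median centring, 937 and 968 or 928 and 976 with the quantile normalizations and 2831 and 1144 with upper-quartile scaling. In skeletal muscle 1780 were lower and 3357 higher with median centring. Between the Tk2+/+ tissues, 3471 were lower and 5762 higher in skeletal muscle, 4911 and 3645 with median centring and 4021 and 3642 with quantile normalization over the 12 arrays. Between the Tk2-/- tissues, 857 were lower and 11200 higher in skeletal muscle, 5722 and 3770 with median centring, 3722 and 3538 with quantile normalization over the 12 arrays and 3381 and 3396 with upper-quartile scaling.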

Other observations

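Other genes with Mcm in their symbol, outside the set described here, were read beside it. Mcmbp, whose product binds MCM proteins, was at 298.5 ± 4.83 in Tk2-/- and 291 ± 33.8 in Tk2+/+ skeletal muscle (SD, n = 3 each), with no call, and at 224 ± 33.1 in Tk2-/- and 344 ± 12.7 in Tk2+/+ heart, a log2 fold change of -0.60 (limma, adjusted p = 0.000335). Mcm3ap was at 144 ± 5.95 in Tk2-/- and 150.1 ± 10.2 in Tk2+/+ skeletal muscle, and at 85.6 ± 9.46 in Tk2-/- and 126 ± 16.2 in Tk2+/+ heart (-0.48, adjusted p = 0.00132). Mcmdc2 was dim, between 4.85 and 17.2 on all arrays, and was called in neither tissue.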
